A study of Mus musculus with 188 samples.

Results

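Dnmt3l, Dnmt3a, Dnmt3b and Dnmt1 are the 4 mouse genes of the DNA methyltransferase family described here, out of 25711 genes listed in the count tables of bulk RNA-seq from cultured brain slices. They were taken by gene symbol, and each symbol matched 1 Ensembl gene. Dnmt3l was chosen by its measured RNA level in 1 comparison of these data, hemoglobin-haptoglobin at 200 µM against control at 48 h, where it was high, so its values there are given as a description with no test. Dnmt3a, Dnmt3b and Dnmt1 were added as its relatives.

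DNA methyltransferases add a methyl group to cytosine, mostly where it is followed by guanine (CpG). DNMT1 copies the methylation pattern onto the new strand when DNA is replicated, and DNMT3A and DNMT3B place methylation on unmethylated sites. DNMT3L has no catalytic activity of its own, binds DNMT3A and DNMT3B and stimulates them, and is known mainly from germ cells and the early embryo. DNMT3A is the main de novo enzyme of the postnatal brain.

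The slices came from wild-type C57BL/6J mice, young adults of both sexes, were cut coronally at 150 µm and kept on inserts with 2 slices each, and treatment began on day 7 of culture. All groups shared that strain and culture, and the labels name no further allele. Batch 1 (60 libraries, 10 in each group, all at 24 h) held untreated control slices, heme bound to albumin (heme-albumin) at 12.5, 50, 200 and 400 µM, and heme bound to its high-affinity carrier hemopexin (hemeHpx) at 200 µM. Batches 2 and 3 held, at 24 h and 48 h, untreated controls (10 and 9 libraries), free hemoglobin (Hb) at 200 µM (10 and 10) and 400 µM (10 and 10), hemoglobin complexed with its scavenger haptoglobin (HbHp) at 200 µM (8 and 8) and 400 µM (4 and 5), and haptoglobin alone (Hp) at 400 µM (12 and 11). The library names of batches 2 and 3 begin with E1 or E2, called culture rounds here, and every HbHp library is of round E2 and batch 3, whereas controls of round E2 number only 3 at 24 h and 2 at 48 h. Of these controls only 1 at each time is of batch 3. Library totals ran from 11 to 44.2 M counts in batch 1 and from 15.6 to 54.2 M counts in batches 2 and 3, so that 1 read is worth between 0.0185 and 0.0906 CPM, the unit of counts scaled to library size used here. Neuron, astrocyte, oligodendrocyte and microglia markers (8, 6, 6 and 6 genes) were all expressed well enough to be tested in both sets, as the brain label requires.

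Dnmt3l lies on chromosome 10 (GRCm38, GENCODE M21 positions: 78041947 to 78063622, plus strand, Ensembl ENSMUSG00000000730). Its first 1664 bases overlap the start of Aire, a thymus transcription regulator gene on the opposite strand, where the exons share 67 bases. Dnmt3a is on chromosome 12 (3806007 to 3914443, plus strand, ENSMUSG00000020661), Dnmt3b on chromosome 2 (153649450 to 153687730, plus strand, ENSMUSG00000027478) and Dnmt1 on chromosome 9 (20907209 to 20959888, minus strand, ENSMUSG00000004099). Whether counting used strand is not given in the sources used here, so reads from Dnmt3l and Aire within the shared exon bases cannot be told apart. The same holds for Dnmt3a and the antisense RNA gene Dnmt3aos, whose exons share 133 bases.

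The start regions of Dnmt3l and Dnmt3b are printed because CpG is the target of these enzymes and the 2 windows differ in how much of it they hold. Each is the RefSeq window of 250 bases before and 50 after an annotated start (GRCm38.p6), 5′ to 3′ along the gene, with CG dinucleotides in capitals.
Dnmt3l, chr10:78042037-78042336, plus strand: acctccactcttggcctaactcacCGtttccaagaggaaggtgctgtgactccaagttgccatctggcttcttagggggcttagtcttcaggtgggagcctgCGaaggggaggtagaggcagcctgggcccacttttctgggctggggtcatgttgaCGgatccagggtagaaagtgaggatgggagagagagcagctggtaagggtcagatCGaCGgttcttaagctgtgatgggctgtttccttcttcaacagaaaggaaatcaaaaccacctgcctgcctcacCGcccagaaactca
Dnmt3b, chr2:153649199-153649498, plus strand: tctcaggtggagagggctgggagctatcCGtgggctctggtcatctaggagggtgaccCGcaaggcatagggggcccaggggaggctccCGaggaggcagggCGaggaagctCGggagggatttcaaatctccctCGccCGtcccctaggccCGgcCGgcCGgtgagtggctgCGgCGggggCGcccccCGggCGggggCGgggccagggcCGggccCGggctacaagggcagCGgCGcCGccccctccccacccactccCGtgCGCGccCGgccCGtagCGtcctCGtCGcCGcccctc
The Dnmt3l window holds 6 CG dinucleotides and the Dnmt3b window 30, against a median of 7 over 32851 windows of that length from 27025 genes. The other annotated starts of Dnmt3l hold 4 and 3. Dnmt3a has starts with 46, 47 and 18, and Dnmt1 has starts with 33, 12 and 2. Of all windows, 56.4% hold at least 6 and 11.7% at least 30. The letters TGACNNNGC, the core of the antioxidant response element bound by NRF2, were searched on both strands. They are in none of the 10 windows of the 4 genes and in 12.4% of all windows.

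Per kilobase of exon the 4 genes spread over a wide range. In batch 1 the median length-scaled level over the 60 libraries was 20.4 CPM per kb for Dnmt1, 7.98 for Dnmt3a, 0.521 for Dnmt3b and 0.332 for Dnmt3l. Over the labelled libraries of batches 2 and 3 the same medians were 16.1, 8.97, 0.431 and 0.269 CPM per kb. Dnmt1 and Dnmt3a thus stood far above the other pair in every library. Dnmt3l counts were small, between 1 and 78 reads a library in batch 1 and between 5 and 88 in batches 2 and 3, and no library was at 0. Dnmt3a had 1268 to 8938 reads and Dnmt1 1471 to 8526 over both sets. Exon lengths are the union of GENCODE M21 exons, which may differ from the annotation used for counting.

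**Figure D1:**
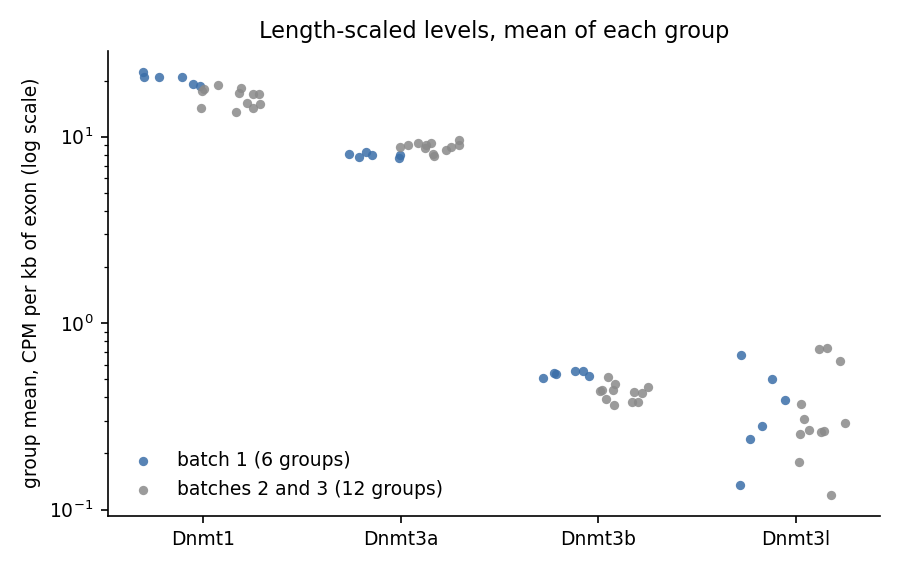
Mean level of each of the 18 groups for the 4 genes, as CPM per kb of exon on a log axis, with batch 1 in blue and batches 2 and 3 in grey. Dnmt1 and Dnmt3a sit in narrow bands, while the group means of Dnmt3l run from 0.120 (control, 48 h) to 0.734 (HbHp 400 µM, 24 h).

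In batch 1 Dnmt3l rose with the dose of heme-albumin. Control slices had between 0.0790 and 0.636 CPM (median 0.476, mean 0.405 ± 0.195, SD, n = 10). Slices given 12.5 µM heme-albumin had between 0.426 and 1.11 CPM (median 0.729, mean 0.710 ± 0.227, n = 10). The 2 groups overlap, with 6 of the 10 treated libraries above the highest control. At 50 µM the range was 0.473 to 1.65 CPM (median 1.19, mean 1.16 ± 0.338, n = 10), and 9 of 10 libraries were above every control. At 200 µM it was 0.573 to 2.32 CPM (median 1.5, mean 1.51 ± 0.544, n = 10), again with 9 of 10 above every control. At 400 µM all 10 libraries, between 1.22 and 3.27 CPM (median 1.84, mean 2.01 ± 0.664), lay above every control.

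Against control the log2 fold change of Dnmt3l was 0.78 ± 0.26 (SE) at 12.5 µM, which did not pass the threshold (edgeR quasi-likelihood test, p = 0.00401, adjusted over all genes 0.614). It was 1.49 ± 0.25 at 50 µM (edgeR adjusted p = 0.000151), 1.85 ± 0.25 at 200 µM (adjusted p = 2.13e-07) and 2.28 ± 0.25 at 400 µM (adjusted p = 1.12e-10). As a ratio of mean CPM these are 1.75, 2.87, 3.72 and 4.97. The step from 200 to 400 µM, 0.43 ± 0.21, did not pass (edgeR adjusted p = 0.436), so the order of the top 2 doses is not settled. Of 15554 genes tested, 0.0386% were called higher at 12.5 µM, 0.45% at 50 µM, 6.98% at 200 µM and 14.7% at 400 µM. At 50 µM Dnmt3l was therefore among 72 genes called in either direction. In bulk slices a change in the number of cells of a type and a change in RNA per cell cannot be told apart.

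**Figure D2:**
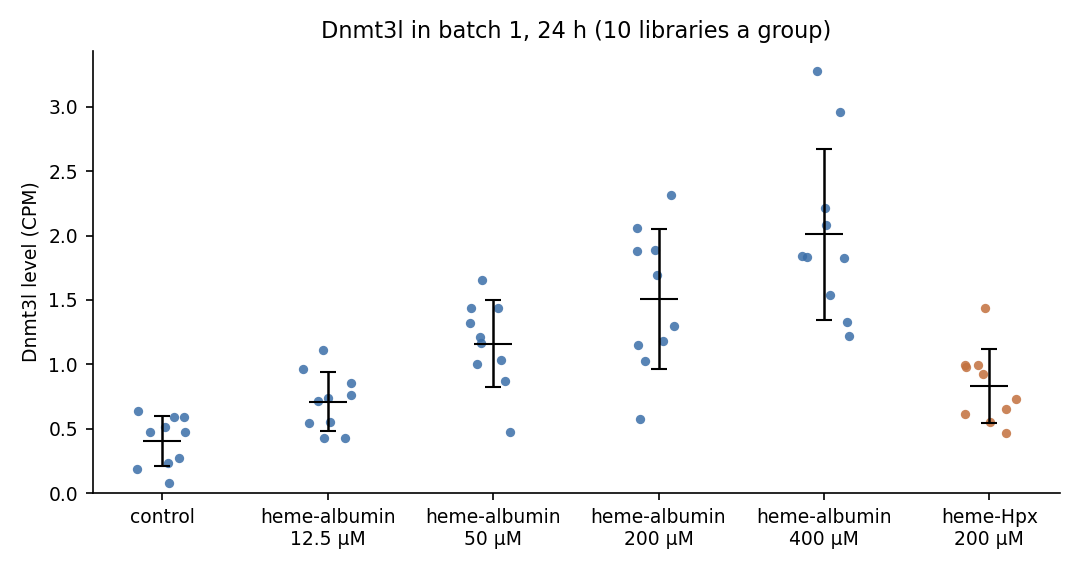
Dnmt3l level (CPM) in each library of batch 1, with the group mean and SD in black, by heme-albumin dose (blue) and for hemeHpx (orange). The group means climb from 0.405 CPM in control to 2.01 CPM at 400 µM, and hemeHpx at 200 µM lies at 0.835 CPM.

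The same 200 µM of heme gave less Dnmt3l when it was bound to hemopexin. HemeHpx slices had between 0.469 and 1.44 CPM (median 0.828, mean 0.835 ± 0.288, n = 10), and 7 of 10 were above every control. No hemeHpx library reached the median of the heme-albumin 200 µM group. Dnmt3l was higher under hemeHpx than in control by 1.01 ± 0.26 on the log2 scale (edgeR adjusted p = 0.0275, with 3.77% of genes called higher). It was lower than under heme-albumin at 200 µM, with a log2 fold change of -0.84 ± 0.22 (edgeR adjusted p = 0.00544, with 12.9% of genes called lower). The 2 agents differ in the carrier protein of the heme, at 1 matched dose and time.

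The 3 enzymes did not follow Dnmt3l in batch 1. Dnmt3a had a mean of 133 ± 8.77 CPM in control and group means between 129 and 137 CPM under treatment. Dnmt3b had 2.75 ± 0.706 CPM in control and between 2.59 and 2.83 CPM under treatment. Dnmt1 had 153 ± 21.6 CPM in control, 164 ± 22.8 at 200 µM heme-albumin, 141 ± 32.9 at 400 µM and 139 ± 17.2 under hemeHpx. For all 3 genes and all 5 treatments the ranges overlapped with control, and no log2 fold change against control exceeded 0.15 in size. Dnmt1 was lower under hemeHpx than under heme-albumin at 200 µM by -0.24 ± 0.10 (log2, edgeR adjusted p = 0.0508), just short of the threshold, and it passed with DESeq2 (-0.25, adjusted p = 0.0420). Of the 4 genes, 1 was called higher and 0 lower against control at 50, 200 and 400 µM and under hemeHpx, and 0 at 12.5 µM. The 1 gene was Dnmt3l each time. Of all genes, 0.45%, 6.98%, 14.7% and 3.77% were called higher in that order, and 0.0386% at 12.5 µM. The shares called lower were 0.0129%, 6.6%, 14.3%, 4.44% and 0.00643%.

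Other lists moved in batch 1 with Dnmt3l. Of 15 target genes of NRF2, the transcription factor that switches on antioxidant enzymes, 3 were called higher at 12.5 µM, 11 at 50 µM, 15 at 200 µM and 15 at 400 µM, and 6 under hemeHpx. In that order 0.0386%, 0.45%, 6.98%, 14.7% and 3.77% of all genes were called higher. At 400 µM Slc7a11, the cystine importer, had a log2 fold change of 1.90 ± 0.15, Osgin1 1.85 ± 0.10, Hmox1, which breaks down heme, 1.76 ± 0.19 and Srxn1, which repairs peroxiredoxins, 1.76 ± 0.09. The median over the 15 was 0.83 there, against -0.01 over all genes tested. Of 6 microglia markers 5 were called lower at 200 µM and 3 at 400 µM, where 6.6% and 14.3% of all genes were called lower. Their summed level ran from 307 to 1059 CPM in control (median 517), from 209 to 485 at 200 µM (median 357) and from 197 to 607 at 400 µM (median 385), and no marker was at 0. Of 6 astrocyte markers 3 and 4 were called lower at the same doses, of 5 border macrophage markers 2 and 2, and of 5 endothelial markers 1 and 1. Of 8 neuron markers 0 and 1 were called higher, and of 6 oligodendrocyte markers 1 and 1. The part of these shifts in the Dnmt3l values was not tested.

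In batches 2 and 3, with culture rounds pooled, Dnmt3l had its lowest group means in untreated slices and its highest under HbHp. At 24 h within round E2 alone the mean of Hp 400 µM (0.647 CPM) was below control (0.848 CPM), and that of Hb 400 µM (1.15 CPM) was above HbHp 200 µM (1.10 CPM). Controls at 24 h had between 0.234 and 0.989 CPM (median 0.495, mean 0.539 ± 0.269, n = 10), and controls at 48 h between 0.124 and 0.628 CPM (median 0.404, mean 0.360 ± 0.168, n = 9). The 2 control groups did not differ past the threshold (log2 fold change of 48 h against 24 h -0.54 ± 0.28, edgeR adjusted p = 0.262). The 3 controls of round E2 at 24 h had 0.676, 0.878 and 0.989 CPM, where the highest of round E1 had 0.719. The 2 of round E2 at 48 h, at 0.540 and 0.628 CPM, were above all 7 of round E1. Over all labelled libraries Dnmt3l was higher in round E2 than in E1 by 0.41 ± 0.13 (log2, edgeR adjusted p = 0.00575), a term on which 68% of genes were called. These comparisons carry a term for batch and one for round, and values within round E2 alone are given where they change the call. Fits within round E2 keep the batch term, and only 1 of its controls at each time shares batch 3 with the HbHp libraries.

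HbHp at 200 µM and 48 h is the comparison that led to Dnmt3l. Its 8 libraries lay between 1.2 and 3.07 CPM (median 1.71, mean 1.88 ± 0.634), all above the highest of the 9 controls. The fitted log2 fold change was 2.19 ± 0.33 and within round E2 alone 1.69 ± 0.42, where the 8 libraries face 2 controls. In that comparison 7.04% of genes were called higher, a figure given only for reference. At 24 h the 8 libraries of HbHp 200 µM lay lower, between 0.671 and 1.71 CPM (median 1.03, mean 1.10 ± 0.356). They overlap with the controls of that time, of which 4 of 8 HbHp libraries exceeded the highest. The log2 fold change at 24 h, 0.87 ± 0.32, did not pass (edgeR p = 0.00793, adjusted 0.163, with 1.66% of genes called higher). It was 0.39 ± 0.37 within round E2 alone (edgeR adjusted p = 0.843), where the ranges overlapped as well.

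Under HbHp at 400 µM all Dnmt3l levels lay above every control of the same time, at 24 h and at 48 h. The 4 libraries at 24 h had 1.24, 1.64, 2.78 and 3.12 CPM (mean 2.19 ± 0.900). All 4 were above the highest of the 10 controls, 0.989 CPM. The log2 fold change was 1.86 ± 0.36 (edgeR adjusted p = 0.000237, with 3.1% of genes called higher), and within round E2 alone, against 3 controls, it was 1.38 ± 0.40 and no longer passed (adjusted p = 0.0563). The 5 libraries at 48 h had 1.72, 1.73, 2.15, 2.57 and 2.65 CPM (mean 2.16 ± 0.441), all above the highest control at 0.628 CPM. The log2 fold change was 2.39 ± 0.35 (edgeR adjusted p = 3.29e-07, with 7.39% of genes called higher) and within round E2 alone 1.89 ± 0.44 (adjusted p = 0.00677). The 48 h controls are the ones also used in the comparison that picked Dnmt3l. The dose step from 200 to 400 µM HbHp was 0.99 ± 0.33 at 24 h (edgeR adjusted p = 0.282), and at 48 h the 2 doses had overlapping ranges with a log2 difference of 0.20 ± 0.31.

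Haptoglobin alone gave a comparison that shares no library with the one that picked Dnmt3l, but it is not fully independent of that choice. All HbHp libraries at 400 µM carry library-name codes of round E2 that also occur in the HbHp group that picked Dnmt3l. The edgeR fits also included that group and controls of that comparison, so their batch term and spread were not estimated separately. Hp at 400 µM and 24 h had between 0.300 and 2.04 CPM (median 0.600, mean 0.792 ± 0.486, n = 12), and at 48 h between 0.470 and 1.56 CPM (median 0.876, mean 0.916 ± 0.321, n = 11). The highest value at 24 h came from a library of round E1. HbHp at 400 µM exceeded Hp at 400 µM by 1.24 ± 0.32 (log2) at 24 h (edgeR adjusted p = 0.0358, with 0.522% of genes called higher). At 48 h the excess was 1.03 ± 0.30, just short of the threshold (adjusted p = 0.0549, with 1.03% called higher). The 24 h call was lost when 1 HbHp library was left out, namely replicate 1 (1.02, adjusted p = 0.527) or replicate 2 (1.11, adjusted p = 0.243). Within round E2 alone it was 1.76 ± 0.29 at 24 h (adjusted p = 0.000153, with 0.852% called higher) and 1.35 ± 0.28 at 48 h (adjusted p = 0.00182, with 1.8% called higher).

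The libraries of HbHp and Hp at 400 µM that share both round E2 and batch 3 did not overlap. At 24 h the 4 HbHp libraries (1.24 to 3.12 CPM) were all above the 6 Hp libraries, which lay between 0.478 and 0.849 CPM. The log2 difference of single levels was 1.56 (two-sided exact permutation test, p = 0.00952, adjusted over 8 tests 0.0381). At 48 h the 5 HbHp libraries (1.72 to 2.65 CPM) were all above the 6 Hp libraries, which lay between 0.470 and 1.56 CPM, with a log2 difference of 1.33 (exact permutation p = 0.00433, adjusted 0.0346). Both p-values are the smallest that 210 and 462 splits of these libraries allow. The test treats libraries as unpaired. All HbHp libraries at 24 h and most at 48 h share a library-name code with an Hp library, so these p-values ignore any such pairing. The same tests gave p between 0.121 and 0.533 for Dnmt3a, Dnmt3b and Dnmt1 (exact permutation, unadjusted).

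Against the controls, Hp alone gave values that turn with the culture round. The log2 fold change at 24 h was 0.62 ± 0.30 (edgeR adjusted p = 0.385) in the whole set and -0.38 ± 0.38 within round E2. The 48 h controls are those of the comparison that picked Dnmt3l, so the 48 h test reuses part of the values that chose it. At 48 h the log2 fold change was 1.36 ± 0.31 (edgeR adjusted p = 0.00239, with 4.88% of genes called higher) and 0.54 ± 0.42 within round E2 (adjusted p = 0.801). The sign at 24 h and the call at 48 h were thus not kept within round E2, where Hp libraries face 3 and 2 controls.

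Free hemoglobin gave smaller values. Dnmt3l had between 0.565 and 1.19 CPM under Hb 200 µM at 24 h (median 0.748, n = 10) and between 0.231 and 1.58 under Hb 400 µM (median 0.835, n = 10). At 48 h the ranges were 0.192 to 1.14 CPM (median 0.771, n = 10) and 0.328 to 1.38 CPM (median 0.742, n = 10). All 4 groups overlap with their controls. The log2 fold changes were 0.64 ± 0.26 and 0.68 ± 0.26 at 24 h (edgeR adjusted p = 1 and 0.429) and 1.07 ± 0.28 and 1.09 ± 0.28 at 48 h (adjusted p = 0.0568 and 0.0279, with 0.279% and 0.486% of genes called higher). The 48 h tests again use the controls of the comparison that picked Dnmt3l and are not independent of that choice. The call at Hb 400 µM and 48 h was lost within round E2 alone (0.88 ± 0.44, adjusted p = 0.320).

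HbHp and Hb were compared at the matched dose of 400 µM. HbHp exceeded Hb by 1.18 ± 0.36 at 24 h (edgeR adjusted p = 0.0560, with 1.18% of genes called higher) and by 1.30 ± 0.34 at 48 h (adjusted p = 0.0143, with 2.84% called higher). At 48 h the 5 HbHp libraries were all above the 10 Hb libraries. Within round E2 alone, with 4 and 3 Hb libraries, the log2 differences were 0.94 ± 0.37 and 1.01 ± 0.37 and neither passed (adjusted p = 0.193 and 0.130). Leaving out replicate 4 of HbHp 400 µM at 48 h gave 1.21 (adjusted p = 0.0531). At 200 µM and 24 h the difference was 0.23 ± 0.32 (edgeR adjusted p = 0.860).

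**Figure D3:**
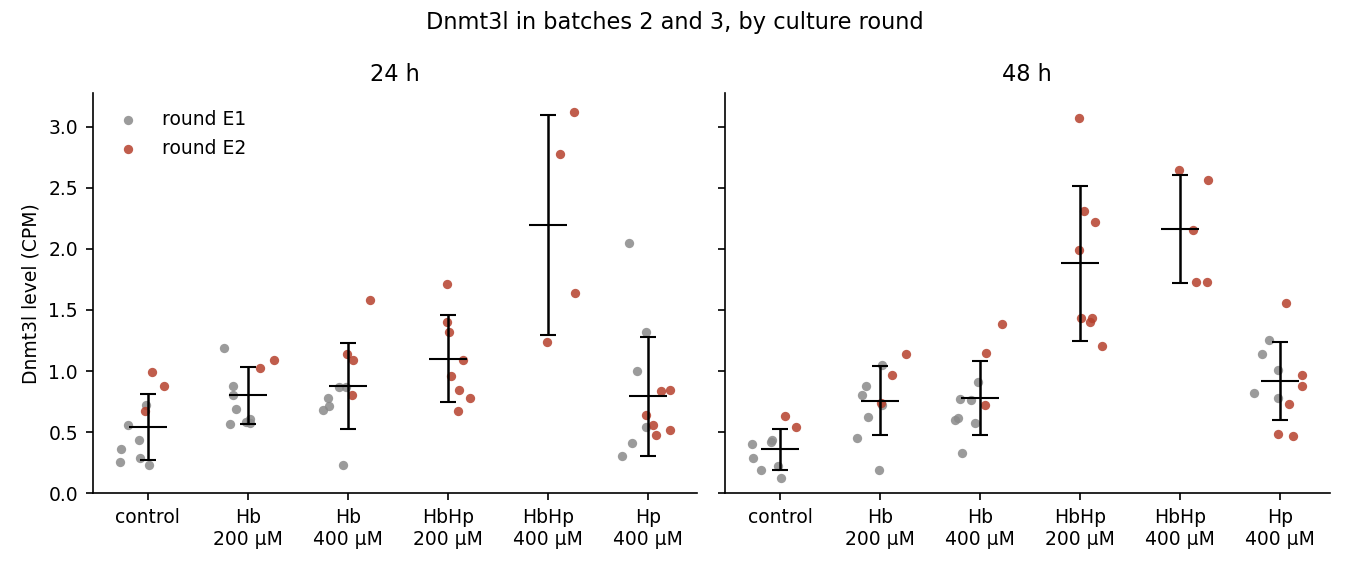
Dnmt3l level (CPM) in each labelled library of batches 2 and 3 at 24 h and 48 h, coloured by culture round, with the group mean and SD in black. The HbHp 400 µM libraries, all of round E2, lie between 1.24 and 3.12 CPM, and the round E2 controls between 0.540 and 0.989 CPM.

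Dnmt1 and Dnmt3a were called lower in 1 comparison with control, HbHp 200 µM at 48 h, and Dnmt3b passed in no comparison of treatments. Dnmt1 had 130 ± 14.1 CPM in the 9 controls at 48 h and 101 ± 21 in the 8 libraries of HbHp 200 µM, a log2 fold change of -0.28 ± 0.10 (edgeR adjusted p = 0.0440). Dnmt3a had 160 ± 7.27 and 131 ± 30.6 CPM in the same groups, a log2 fold change of -0.24 ± 0.08 (adjusted p = 0.0436). In that comparison 4.85% of genes were called lower. Neither passed within round E2 alone, at -0.28 ± 0.15 and -0.19 ± 0.17 (adjusted p = 0.287 and 0.564). Both calls were also lost without replicate 1 of the HbHp group, at -0.19 and -0.14 (adjusted p = 0.178 and 0.146), and without control replicate 7, at -0.28 and -0.25 (adjusted p = 0.0557 and 0.0505). The Dnmt1 call was lost without control replicate 9 as well (-0.30, adjusted p = 0.0547). Replicate 1 of the HbHp group had 51.3 CPM of Dnmt1, where the other 7 had at least 97.4, and 58.6 CPM of Dnmt3a, where the others had at least 132. It also had the highest Dnmt3l level of its group, 3.07 CPM. At HbHp 400 µM and 48 h the 5 Dnmt1 levels (mean 106 ± 7.21 CPM) lay below all 9 controls, but the log2 fold change of -0.21 ± 0.11 did not pass (edgeR adjusted p = 0.207). Hp alone at 400 µM and 48 h gave similar values, -0.23 ± 0.09 for Dnmt1 (edgeR adjusted p = 0.0752) and -0.14 ± 0.08 for Dnmt3a (adjusted p = 0.243). For Dnmt1, 9 of its 11 libraries lay below every control. Within round E2 all 6 Hp libraries lay below both controls, with a ratio of mean Dnmt1 CPM of 0.963. That ratio was 0.868 for HbHp 200 µM and 0.910 for HbHp 400 µM at 48 h. HbHp 400 µM differed from Hp 400 µM at 48 h by 0.02 ± 0.09 for Dnmt1 and -0.01 ± 0.08 for Dnmt3a (log2). At 24 h the ratio of mean Dnmt1 CPM to control within round E2 was 1.04 for HbHp 200 µM and 0.995 for HbHp 400 µM. Of the 4 genes, 1 was called higher and 0 lower under HbHp 400 µM at each time, where 3.1% and 2.06% of all genes were called higher and lower at 24 h and 7.39% and 4.56% at 48 h. Dnmt3b had group means between 1.86 and 2.63 CPM over all 12 groups, and its log2 fold changes against control lay between -0.02 and 0.34.

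Part of the Dnmt1 and Dnmt3b spread followed the culture round. Controls at 24 h had 147 ± 15.7 CPM of Dnmt1 in the 7 libraries of round E1 and 106 ± 16.4 in the 3 of round E2. Over all labelled libraries the log2 difference of E2 against E1 was -0.25 ± 0.04 for Dnmt1 (edgeR adjusted p = 8.43e-08), -0.25 ± 0.08 for Dnmt3b (adjusted p = 0.00267) and -0.08 ± 0.04 for Dnmt3a (adjusted p = 0.0447). The HbHp groups had Dnmt1 means of 101 to 110 CPM, and the round E2 controls 106 CPM at 24 h and 116 CPM at 48 h. At 24 h the HbHp means were close to that of the round E2 controls. At 48 h 7 of 8 libraries of HbHp 200 µM and all 5 of HbHp 400 µM lay below both round E2 controls. The ratios of mean CPM were 0.868 and 0.910 there.

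**Figure D4:**
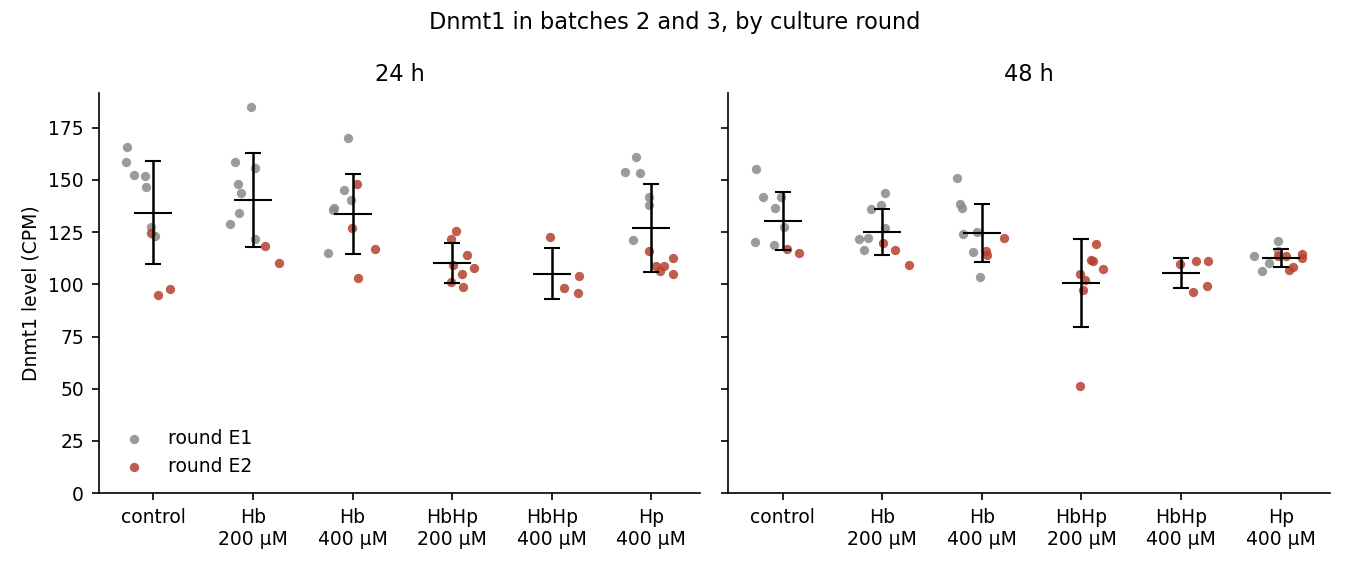
Dnmt1 level (CPM) in each labelled library of batches 2 and 3 at 24 h and 48 h, coloured by culture round, with the group mean and SD in black. Round E2 libraries lie lower than round E1 libraries in the controls (means of 106 and 147 CPM at 24 h), and 1 library of HbHp 200 µM at 48 h stands apart at 51.3 CPM.

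**Figure D5:**
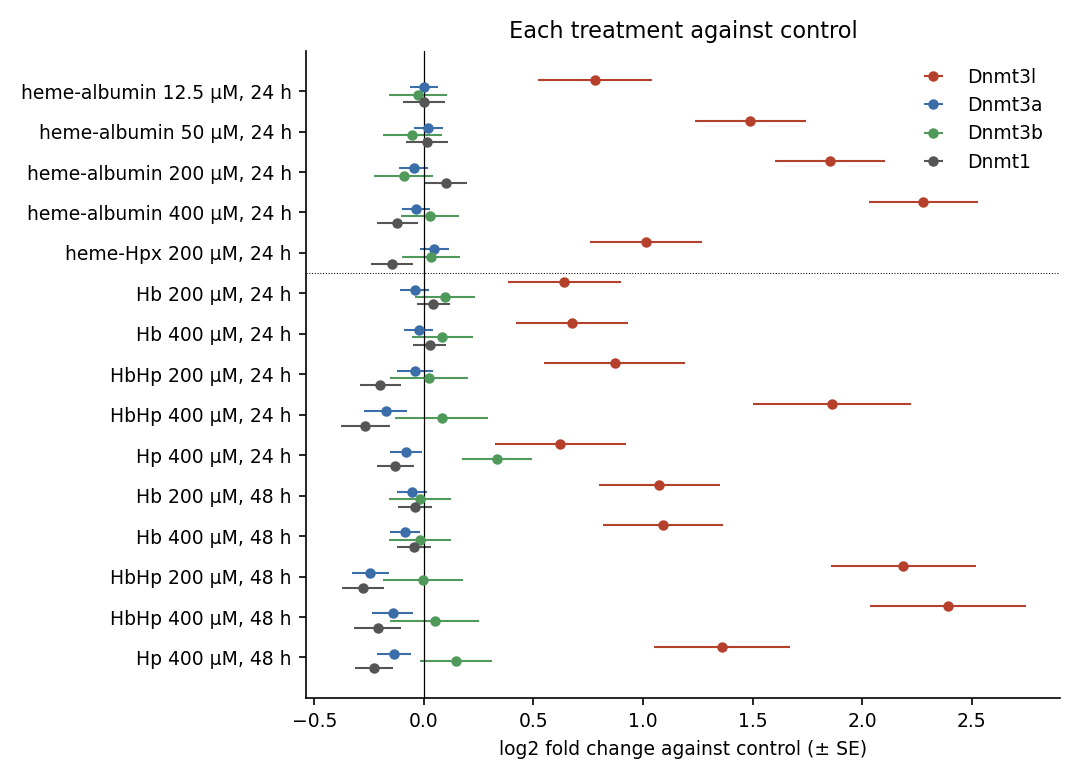
Log2 fold change against control, with its SE, of the 4 genes in each treatment, with batch 1 above the dotted line and batches 2 and 3 below it. Dnmt3l values are all above 0.6 and reach 2.39 at HbHp 400 µM and 48 h, while the other 3 genes stay between -0.28 and 0.34.

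The genes that work with these enzymes were counted next. Of 26 cofactors and readers of DNA methylation 25 were tested. At 400 µM heme-albumin 2 were called higher and 3 lower, where 14.7% and 14.3% of all genes were, and the leading ones were Mbd4, a thymine glycosylase (-0.42 ± 0.11), Mbd1, a methyl-CpG binding protein (-0.27 ± 0.05), Zbtb38 (0.26 ± 0.08) and Mbd2 (-0.24 ± 0.09), each with edgeR adjusted p under 0.05. At HbHp 400 µM and 48 h 3 were called higher and 3 lower, led by Uhrf1, which recruits DNMT1 to newly copied DNA (-0.57 ± 0.17), Mbd1 (-0.40 ± 0.11), Uhrf2 (0.35 ± 0.05) and Zbtb33 (0.27 ± 0.08). Within round E2 alone the counts were 3 and 0, with 3.34% and 1.32% of genes called, and neither Uhrf1 nor Mbd1 was among them. At HbHp 200 µM and 48 h within round E2 the counts were 2 and 1, with 2.73% and 1.2% of genes called. Mbd1 was among the called genes there, and Uhrf1 was not.

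Of 13 genes linked to removal of DNA methylation, the 3 TET dioxygenases Tet1, Tet2 and Tet3 passed in none of the 7 comparisons of batch 1 and none of the 19 between treatments or times in batches 2 and 3, with lowest edgeR adjusted p-values of 0.10 and 0.262. All 3 were lower in culture round E2 than in E1, by -0.43 for Tet1, -0.34 for Tet2 and -0.18 for Tet3 (log2). The stress-induced Gadd45 genes led the list. Gadd45b had a log2 fold change of 1.21 ± 0.20 at 400 µM heme-albumin and 1.24 ± 0.18 at HbHp 400 µM and 24 h, and Gadd45a 0.81 ± 0.07 and 0.67 ± 0.10. Both were also called within round E2 alone at HbHp 400 µM and 24 h, against control and against Hp. They were the 2 called of 13 against control, where 3.1% of all genes were called higher (1.52% within round E2 alone). Against Hp within round E2 alone 3 were called, the third being Gadd45g (0.33 ± 0.09), where 0.852% of all genes were called higher.

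Genes that DNA methylation is known to keep silent showed little. Of 12 germline genes held silent by methylation, 2 were expressed enough to test in batch 1 and 3 in batches 2 and 3. None was called against control in any comparison. Ddx4 was called once, at HbHp against Hb at 200 µM and 48 h (0.75 ± 0.21, edgeR adjusted p = 0.0224, with 3.14% of genes called higher), and was named after its value was seen. Of 17 imprinted genes 13 were tested, and 0 were called under HbHp against control at either dose or time, although within round E2 alone Dlk1 was called lower at HbHp 400 µM and 48 h. At 400 µM heme-albumin 2 of them were called lower, Cdkn1c (-0.59 ± 0.18) and Nnat (-0.46 ± 0.13), a share near the 14.3% of all genes called lower there. RNA levels do not measure methylation itself, which was not assayed in these libraries.

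DNA replication genes were counted because DNMT1 acts at replication. At HbHp 400 µM and 24 h 17 of 20 were called lower, where 2.06% of all genes were, led by Top2a (-0.66 ± 0.17), Mcm5 (-0.62 ± 0.13), Rrm2 (-0.61 ± 0.14) and Mki67 (-0.60 ± 0.15). Within round E2 alone 0 of 20 were called there (0.45% of all genes lower), with a median of -0.22. At 48 h the counts were 11 of 20 and, within round E2 alone, 5 of 20, with 4.56% and 1.32% of genes called lower. At 400 µM heme-albumin 4 of 20 were called lower, where 14.3% of all genes were. NRF2 targets kept their counts better within the round. At HbHp 400 µM 14 of 15 were called higher at 24 h (3.1% of all genes higher) and 15 at 48 h (7.39%). Within round E2 alone 12 (1.52% of all genes higher) and 14 (3.34%) were called. For Hp 400 µM at 48 h 12 of 15 were called in the whole set (4.88% of all genes higher) and 0 within round E2 alone, where 0.0243% of all genes were called higher.

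The neighbours of Dnmt3l did not rise with it. Aire, which overlaps it, had group means between 0.0690 and 0.300 CPM over all 18 groups. It was lowest in HbHp 200 µM at 48 h (0.0690 CPM, n = 8) and HbHp 400 µM at 48 h (0.0720 CPM, n = 5), 2 of the groups with the highest Dnmt3l. Icosl, the immune costimulatory ligand gene 5680 bases downstream on the same strand, had log2 fold changes of -0.30 ± 0.14 at 400 µM heme-albumin (edgeR adjusted p = 0.105) and -0.28 ± 0.23 at HbHp 400 µM and 48 h (adjusted p = 0.468). Pfkl, a glycolysis enzyme gene 31864 bases upstream, had -0.35 ± 0.15 (adjusted p = 0.0636) and -0.54 ± 0.21 (adjusted p = 0.0748). Markers of thymic epithelium and germ cells, among them Aire, Dazl and Pou5f1, summed to between 0.962 and 3.59 CPM per library over 7 genes, with 3 to 5 of the 7 under a mean of 0.1 CPM in each group.

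The genes most like each member were named by Pearson's r of log2 CPM over the labelled libraries of batches 2 and 3, with batch and round removed, and r over the 60 libraries of batch 1 is given beside it. The libraries share treatments and depth, so r is a description. For Dnmt3l they were Esd, an S-formylglutathione hydrolase (0.77 and 0.79), Prdx1, a peroxiredoxin (0.77 and 0.84), Akr1b8, an aldo-keto reductase (0.76 and 0.68), Pgd, an NADPH-producing enzyme (0.73 and 0.85), and Slc40a1, the iron exporter ferroportin (0.73 and 0.81). In batch 1 these 5 ranked 18, 5, 106, 4 and 11 among 15553 genes. Dnmt1 was nearest to Pold1, a DNA polymerase subunit (0.90 and 0.63), Pole, another (0.87 and 0.97, the first rank in batch 1), Tcof1 (0.86 and 0.25), Espl1 (0.86 and 0.85) and Vars (0.86 and 0.51).

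Dnmt3a was nearest to Tet3 (0.86 and 0.74), Chd7, a chromatin remodeller (0.86 and 0.45), Wdfy3 (0.85 and 0.46), Zfp865 (0.85 and 0.43) and Zc3h4 (0.84 and 0.55). Dnmt3b had weaker neighbours, Guf1 (0.57 and 0.27), Taf1d (0.56 and 0.33), Zkscan3 (0.55 and 0.25), Brd8 (0.55 and 0.39) and Akap8 (0.54 and 0.31). Between members, Dnmt3l had r of -0.34 with Dnmt3a, -0.17 with Dnmt3b and -0.37 with Dnmt1 in batches 2 and 3, and -0.20, -0.21 and -0.34 in batch 1. Dnmt3a and Dnmt1 had 0.63 and 0.47. With few reads per library, r of Dnmt3l and Dnmt3b also carries counting error.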

How the data were processed

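Per the labels, the deposited values are raw counts per gene from featureCounts on GRCm39, 1 table for each of 188 libraries (poly(A) libraries, reads aligned by a tool not given in the sources used here). Symbols came from a reference table of gene IDs, and all 4 genes matched. Of the libraries, 167 had a group in their labels and 21 did not (20 whose tag and title name different scavengers, 1 with no treatment tag), and these enter no comparison. HemeHpx libraries are titled as heme-haptoglobin, but the treatment tag, the library names and the study's methods say hemopexin. Counts were fitted with edgeR 4.0.16 (quasi-likelihood F test, TMM scaling, filterByExpr with a minimum count of 10, Benjamini-Hochberg over all genes, threshold 0.05) separately for batch 1 (60 libraries, 15554 of 25655 genes) and batches 2 and 3 (16473 of 25528 genes, with terms for batch and culture round, which the study's methods do not name). The term for round was tested in the same fit. CPM are TMM-scaled. Single levels were compared with an exact permutation test on log2(CPM + 0.1) in scipy 1.17.1. DESeq2 1.42.0 and other settings were alternatives. The fitting was tested on simulated data. No 2 libraries of a group agreed within sampling noise (lowest chi-square per degree of freedom 3.63). Labels do not tie replicates to separate animals, so p-values measure the spread between libraries. The members and the lists were chosen with earlier results of these data known. Named genes are the 4 members, genes overlapping a member or nearest to Dnmt3l, the 5 most correlated genes for each, and of each list up to 4 called genes a comparison by size of change. Cell type lists covered neurons, astrocytes, oligodendrocytes, microglia, border macrophages, endothelial cells, and thymic epithelium with germ cells.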

Additional observations from a re-analysis of the deposited data

Results flagged for a closer look

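In 4 of 64 sets of library levels tested (a gene in a group of 4 to 10 libraries), 1 library stood far from the rest, and chance gives about 1 in 20. Dnmt1 had 51.3 CPM in replicate 1 of HbHp 200 µM at 48 h, where the next library had 97.4 CPM. Dnmt3a had 58.6 CPM in the same library, where the next had 132 CPM. Dnmt3a had 126 CPM in replicate 8 of Hb 400 µM at 48 h, where the next had 145 CPM. Dnmt3b had 3.18 CPM in replicate 1 of HbHp 200 µM at 24 h, where the next had 2.09 CPM.

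Dnmt3l was also read in 10 libraries tagged as hemoglobin with hemopexin at 400 µM and 48 h, which the labels do not place in a group because tag and title differ. As a share of the library total their median was 0.778 CPM (range 0.278 to 1.41), and 7 of 10 lay above the highest of the 9 controls of that time (0.130 to 0.603 CPM).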

How the results depend on the processing

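The batch 1 calls of Dnmt3l against control were kept under every alternative that gave a value. Over 27 results, 240 of 300 alternative values kept direction and side of the threshold. A minimum of 10 counts in every library drops Dnmt3l, and DESeq2 gave no adjusted p for Dnmt3l under hemeHpx (1.01) or Hb 200 µM at 24 h (0.64). Values are log2 fold changes, and causes were not tested.

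Within round E2 alone, Dnmt3l no longer passed at HbHp 400 µM and 24 h (1.38), Hb 400 µM at 48 h (0.88), Hp at 48 h (0.54) and HbHp against Hb 400 µM at 48 h (1.01). Hp at 24 h turned to -0.38, HbHp 200 µM at 48 h fell to 1.69, and HbHp against Hp at 48 h passed (1.35). Dnmt1 and Dnmt3a at HbHp 200 µM and 48 h did not pass (-0.28 and -0.19). In batch 3 alone, Dnmt3l did not pass at HbHp 400 µM and 24 h (1.95), Hb 400 µM at 48 h (0.92), Hp at 48 h (0.81) and HbHp against Hb 400 µM at 48 h (1.09), Hb 200 µM at 48 h turned to -0.17, HbHp against Hp at 48 h passed (1.2), and Dnmt1 and Dnmt3a did not (-0.12 and -0.20). With no batch or round term, HbHp 200 µM at 24 h (1.03), HbHp against Hp at 48 h (1.24) and HbHp against Hb 400 µM at 24 h (1.31) passed, and with batch alone the last pair did (1.24 and 1.32). DESeq2 called Hb 200 µM at 48 h (1.08), HbHp against Hp at 48 h (1.03) and HbHp against Hb 400 µM at 24 h (1.19). With no filter, HbHp against Hp at 24 h (1.23), Dnmt1 (-0.27) and Dnmt3a (-0.24) were lost. With each time fitted alone, HbHp against Hp at 24 h (1.24), HbHp against Hb 400 µM at 48 h (1.19), Dnmt1 (-0.30) and Dnmt3a (-0.26) were lost, and Hb 200 µM at 48 h passed (1.09).

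The main fits carry no term for replicate. Pairs sharing a library-name code had a median correlation of 0.287 in batch 1, where other pairs had -0.0272. In batches 2 and 3 these medians were 0.0990 and -0.00673. The lowest same-code values were -0.84 and -0.90, so the code paired the libraries only in part. A block on the library-name code kept all Dnmt3l calls and added Hb 200 µM at 48 h (1.07) and HbHp against Hb 400 µM at 24 h (1.33). Title numbers did not mark alike libraries in batches 2 and 3. Same-number pairs had a median correlation of 0.00193, and other pairs -0.00156. The same number can stand for round E1 among controls and round E2 under HbHp, which limits what the next values can show. A block on the title number gave -0.16 and 1.25 for HbHp 200 µM at 24 h and 48 h, 0.66 and 1.31 for HbHp 400 µM, 0.89 for Hp at 48 h, 0.55 for HbHp against Hp at 24 h, 0.15 for HbHp against Hb 400 µM at 48 h, -0.29 for Dnmt1 and -0.27 for Dnmt3a, none past the threshold where tested, and called Hb 200 µM at 48 h (1.17).

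Leaving out single libraries gave 1.02 to 1.44 for HbHp against Hp at 24 h, 0.97 to 1.38 for HbHp against Hb 400 µM at 24 h, 1.21 to 1.37 at 48 h, 1.12 to 1.16 for Hb 200 µM at 48 h, -0.30 to -0.19 for Dnmt1 and -0.27 to -0.14 for Dnmt3a, the last 2 including 1 omission chosen after seeing the data. Leaving out 1 control at 48 h ended calls of Dnmt1 (replicate 7 or 9) and Dnmt3a (replicate 7), and without replicate 9 Dnmt3l passed at Hb 200 µM (1.16). The lists within round E2 alone were also added then. Dnmt3l rests on 1 to 88 reads a library, which limits small differences.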

Other observations

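The 10 unplaced libraries tagged as hemoglobin with hemopexin at 24 h had a median Dnmt3l share of 0.511 CPM (range 0.343 to 0.870), within the range of the 10 controls of that time (0.242 to 0.972 CPM). The single library with no treatment tag had 0.382 CPM.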
